A study of Rattus norvegicus with 12 samples.

Results

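The 7 arrays described here are those whose sample numbers run from 5 to 8, 3 of the Vdac1 knockout (KO 5, KO 6 and KO 7) and 4 of the wild type (WT 5 to WT 8), out of 12 arrays in the series. All 12 measured total RNA of N27 cells, an immortalised line from rat embryonic midbrain that is used as a model of dopamine neurons. In the knockout cells the gene for VDAC1 had been removed with CRISPR, the wild-type cells carried no stated edit, and cells of both genotypes were grown to 80% confluence with no other treatment named. The labels do not say whether the knockout cells were 1 clone, where the edit lies, or whether each array stands for a separate culture. The p-values therefore cover just the variation among these arrays, which may be technical. The arrays were chosen by number, since 5 to 8 is the range with several arrays of both genotypes, and the range was itself selected on the measured values, since the arrays numbered 1 to 4 (KO 1 to KO 4 and WT 3) stood apart. On the first principal component of all 12 arrays, which held 37.4% of the variance, the arrays numbered 5 to 8 scored 15.7 to 46.4 and those numbered 1 to 4 scored -43.7 to -32.0. That separation chose the arrays and is not a result, and the labels do not say what the numbers stand for.

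VDAC1 is a barrel-shaped channel through which ATP, ADP, small metabolites and ions cross the outer mitochondrial membrane. It is the most abundant of a family with VDAC2 and VDAC3, it docks hexokinase on the mitochondrial surface, and it meets proteins of the BCL2 family that govern cell death. Neurons draw most of their ATP from mitochondrial respiration, while dividing cell lines such as N27 also rely on glycolysis. The comparison asks how the transcripts of these cells differ once the channel is gone.

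Within the 7 arrays the first principal component, with 36.8% of the variance, separated the genotypes. The knockout arrays scored 29.7 to 41.8 on it and the wild-type arrays -37.9 to -16.7. The second component, with 28.5%, followed the slide and the day of scanning. KO 5, WT 6 and WT 7, which share slide 3 and the second scan day, scored 4.2 to 44.1 on it, and the other 4 arrays -30.5 to -8.94. KO 6, KO 7 and WT 8 lay on slide 1 and WT 5 on slide 2, so each scan day held both genotypes. The 75th percentile of the signal ran from 120.1 to 596.1 over the 7 arrays, between 42.3% and 53.8% of spots were well above background, and no spot was saturated. An index of the signal of probes near the 3′ end against probes farther from it, a sign of RNA quality, lay between 1.49 and 1.61 in the knockout and 1.51 and 1.62 in the wild type. WT 5 and WT 8 were closer than any other pair, with a median difference of 0.138 on the log2 scale, against 0.167 for KO 6 and KO 7 and 0.230 to 0.396 for the other pairs. Repeated spots within an array differed by 0.0859 in WT 5 and 0.0752 in WT 8. These values cannot tell whether WT 5 and WT 8 share an RNA sample. They are labelled as separate samples and were kept so, and with both averaged as 1 array, an alternative added after seeing the data, 112 features were called higher and 116 lower, against 347 and 336 with both kept.

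**Figure D1:**
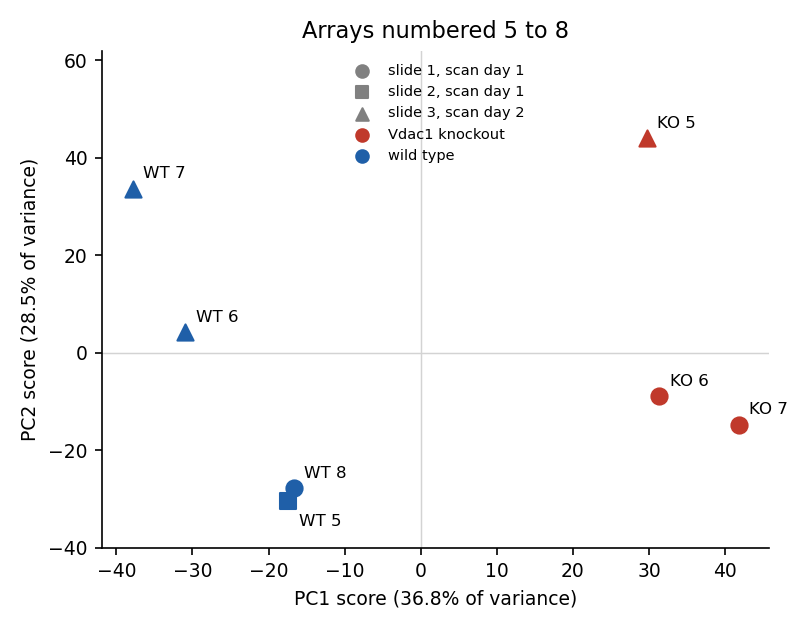
Scores of the 7 arrays on the first principal component (x axis, 36.8% of the variance) and the second (y axis, 28.5%), with genotype as colour and slide as symbol. The 3 knockout arrays lie right of zero and the 4 wild-type arrays left of it, and the arrays of slide 3 lie above those of slides 1 and 2.

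Vdac1, the targeted gene, was lower in each knockout array than in each wild-type array on all 3 of its probes. One of these probes lies in the coding sequence, at base 630 of the transcript and at chr10:37819583-37819641 of the rat build rn4, and is shown because it reads the part of the message that encodes the channel.
Vdac1 coding probe: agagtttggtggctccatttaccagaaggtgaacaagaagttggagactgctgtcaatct
On the brightest probe, at base 1724, the level relative to the array's 75th percentile was 1.21 in KO 5, 1.53 in KO 6 and 1.20 in KO 7, against 3.14, 3.07, 3.16 and 3.07 in WT 5 to WT 8. The groups did not overlap and the knockout kept 28.8% of the wild-type signal, a log2 difference of -1.80 (SE 0.15, limma adjusted p = 0.0012). The coding probe gave -3.37, -4.15 and -2.87 in KO 5, KO 6 and KO 7 and -1.89, -1.69, -1.29 and -1.57 in the wild type, a difference of -1.86. The probe at base 880 gave a difference of -1.78. Each of the 3 probes stayed well above background in all 7 arrays, so a reduced signal remained. The exact two-sided permutation test gave p = 0.0571 for each probe, which is the smallest that 35 splits of 3 against 4 arrays allow. With slide as a block the difference on the brightest probe was -1.81 (limma adjusted p = 0.0191), and within slides 1 and 3, with 3 arrays each, it was -1.71 and -1.91 and not called (limma adjusted p = 0.22 and 0.371). The position of the edit against these probes is not stated in the sources used here.

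The other channels of the family showed no call. Vdac2 had 4.31, 3.83 and 3.74 in KO 5, KO 6 and KO 7 and 3.73, 4.44, 4.54 and 3.65 in WT 5 to WT 8, with overlapping groups and a difference of -0.13 (SE 0.28, limma adjusted p = 0.83). Vdac3 had 3.87, 3.0 and 2.91 against 2.89, 3.41, 3.65 and 2.82, a difference of 0.07 (SE 0.30, limma adjusted p = 0.92). Both were highest in arrays of slide 3 in each genotype, and their small differences changed sign under several settings, so neither has a direction here.

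**Figure D2:**
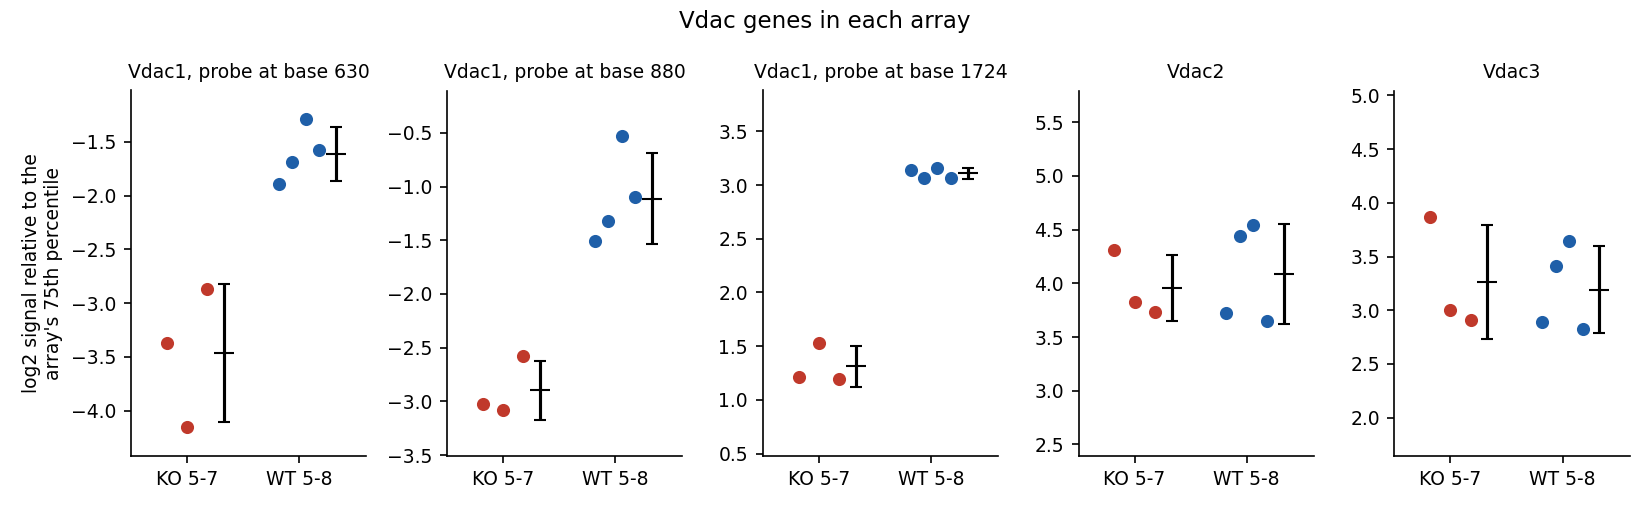
Log2 signal of 3 Vdac1 probes, Vdac2 and Vdac3 relative to the array's 75th percentile (y axis, the same span in each panel) in each knockout array (KO 5-7) and wild-type array (WT 5-8), with the mean and SD beside the points. The Vdac1 groups are apart on all 3 probes, while those of Vdac2 and Vdac3 overlap.

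Of 14833 features tested, 347 (2.34%) were called higher in the knockout and 336 (2.27%) lower at a limma adjusted p under 0.05, and 206 of the rises and 209 of the falls were at least 2-fold. In all 683 called features the groups did not overlap, which was also so for 13.2% of all features with the knockout higher and 8.73% with the knockout lower. The median difference over all features was 0.08. Quantile normalization moved the calls to 226 higher and 348 lower, and the authors' value table to 234 and 350, so the share of rises fell from 50.8% to 39.4% and 40.1%. The titles of that table read "Q. Norm.", taken here as quantile normalization, so these settings are not independent. Most counts were smaller with 1 array left out. They were 215 higher and 207 lower without KO 5, 72 and 115 without KO 6, 60 and 88 without KO 7, 111 and 121 without WT 5, 140 and 164 without WT 6, 89 and 98 without WT 8, and 322 and 307 without WT 7. With slide as a block 79 features were called higher and 99 lower. Within a single slide, with 3 arrays each, limma called 0, while 2153 features on slide 1 and 1252 on slide 3 had an unadjusted p under 0.05.

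The count of rises holds one gene many times. Gapdh, which encodes a central enzyme of glycolysis, has many processed copies in the rat genome, and 66 of the 347 rises were features described as Gapdh or a copy of it, or had probes sharing a run of at least 20 bases with such a probe. Their differences lay between 0.89 and 1.27. Among the 80 rises whose mean log2 signal over the arrays was above 2, 53 were of this kind. Which copies contribute cannot be told apart, and without them 281 rises, 1.91% of the other features tested, remained against 336 falls, of which none was of this kind.

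**Figure D3:**
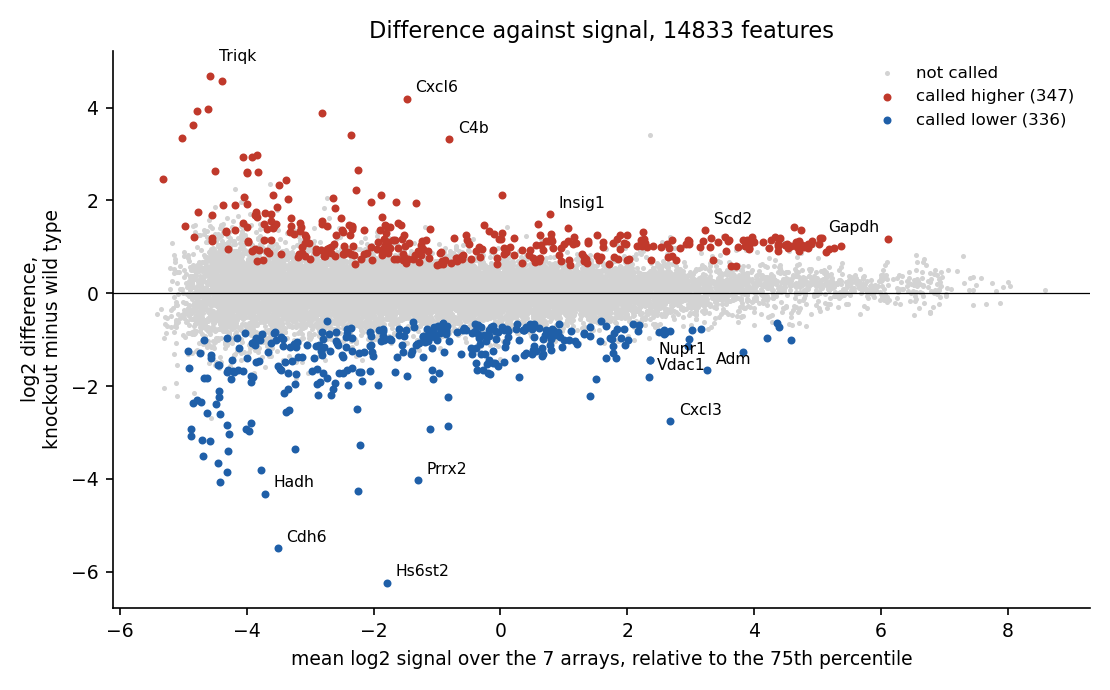
Log2 difference, knockout minus wild type (y axis), against the mean log2 signal over the 7 arrays (x axis) for each of 14833 features, with called features in colour and some named genes marked. Calls lie on both sides over most of the range of signal, and the bright rises near a difference of 1 are mostly Gapdh and its copies.

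The 15 largest rises were ranked by the measured log2 difference, which is not a size where the wild type was near background. Values are given from here on in the order KO 5, KO 6, KO 7 and WT 5, WT 6, WT 7, WT 8. Cxcl6, a chemokine that draws neutrophils, had 0.93, 0.78 and 1.04 in KO 5, KO 6 and KO 7 and -3.18, -3.36, -2.99 and -3.56 in WT 5 to WT 8. That is an 18.3-fold rise with no overlap (log2 difference 4.19, SE 0.18, limma adjusted p = 5.7e-05), and a second probe gave 3.91. Under normexp background correction the difference was 2.65. That setting adds an offset of 50 to each signal, beside 75th percentiles of 120.1 to 596.1, which narrows the log2 differences of dim probes. The parts of the offset and of the correction were not separated. Msmp, a small secreted protein, had -0.69, -0.45 and -0.62 against -4.13, -4.48, -5.08 and -4.20, a rise of 3.89 (SE 0.24, limma adjusted p = 0.00054). Its wild-type signal was well above background on 3 of 4 arrays.

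Genes of the complement system were among them. C4b, a component of the classical complement pathway, had 0.57, 1.36 and 1.35 in the knockout and -1.85, -2.98, -1.64 and -2.45 in the wild type, a rise of 3.32 (SE 0.35, limma adjusted p = 0.0033). C4a, its near-identical neighbour, was not well above background on any wild-type array and was at least 6.3-fold higher in the knockout, but the 2 genes share sequence and their probes may read both. The C4a call was lost without KO 6, KO 7 or WT 8 (adjusted p up to 0.074). Serping1, the C1 inhibitor, which was well above background on 2 of 4 wild-type arrays, had -0.47, -0.05 and -0.71 against -3.35, -4.84, -3.35 and -3.76, a rise of 3.42 (SE 0.37, limma adjusted p = 0.0034).

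For 7 of the 15 largest rises no wild-type array was well above background, so only a lower bound can be given, from the knockout mean against the higher of the dimmest signal called above background and the probe's own signal on each wild-type array. Triqk was at least 11.3-fold higher. Stc1, a secreted glycoprotein of mineral and mitochondrial metabolism, was at least 8.32-fold higher, and Sox5, a transcription factor of neural and cartilage development, at least 7.31-fold. Pygl, the liver form of glycogen phosphorylase, was at least 7.5-fold higher, Ppp1r1b, the dopamine-regulated phosphatase inhibitor of striatal neurons, at least 6.56-fold, and Ldhb, the heart form of lactate dehydrogenase, at least 6.09-fold. All of these were well above background on the 3 knockout arrays, and they passed the filter through those arrays alone. Their wild-type signals lie in the range of background and have no order.

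Further large rises were those of Plaat3 (2.58), a phospholipid-modifying enzyme of fat cells, Ptprz1 (2.62), a receptor phosphatase of glial and neural precursors, and Tmem176b (2.44), an ion channel of endosomes. Plaat3 had -2.48, -2.52 and -2.57 against -4.49, -5.85, -5.10 and -5.00. It was tight in the knockout and near background in the wild type, where 1 of 4 arrays was well above it. The calls on Ptprz1 and Tmem176b were lost without KO 6, KO 7 or WT 8, with adjusted p up to 0.083 and 0.106. Trim30d, of a family of immune tripartite-motif proteins with close relatives, had -1.78, -1.91 and -2.8 against -4.08, -4.52, -5.43 and -3.98, with 2 of 4 wild-type arrays above background. Its rise of 2.34 was lost without KO 5, KO 6 or WT 6 (adjusted p up to 0.078).

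The 15 largest falls were ranked in the same way. In 9 of them no knockout array was well above background, so these passed the filter through the wild type alone. Hs6st2, which sulfates heparan chains, had -5.74, -4.10 and -6.22 in KO 5, KO 6 and KO 7 and 0.96, 1.22, 0.44 and 0.91 in WT 5 to WT 8. The groups did not overlap (limma adjusted p = 0.00096), but the knockout was well above background in 1 of 3 arrays, so the measured log2 difference of -6.23 is not a size, and it was -2.91 under normexp background correction. Cdh6, a cadherin of embryonic epithelia and kidney, was below that limit on each knockout array and at least 18.6-fold lower, with -5.89, -7.71 and -6.33 against -1.17, -1.14, -1.34 and -0.95.

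Hadh, the mitochondrial enzyme of the third step of short-chain fatty acid oxidation, had -5.92, -6.38 and -6.25 in the knockout and -1.76, -1.81, -1.78 and -2.12 in the wild type. No knockout array was well above background, so it was at least 11-fold lower (limma adjusted p = 5.7e-05). Lhfpl2 had -4.36, -4.39 and -5.28 against -0.26, -0.35, -0.62 and -0.46, a fall of 4.25, with 1 of 3 knockout arrays above background. Prrx2, a homeobox factor of mesenchyme, had -3.21, -3.58 and -4.0 against 0.02, 0.66, 0.88 and 0.18, a fall of 4.03 (SE 0.27, limma adjusted p = 0.0007). In each of these genes the groups lay apart, but groups without overlap were a condition for naming them, so this is not a further result. Where no knockout array was above background, as for Hadh, the knockout spread is that of background signal.

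Among the other large falls, Fgfr2, a fibroblast growth factor receptor, was at least 6.55-fold lower, Cdkn1c, the cell cycle inhibitor p57, at least 9.31-fold, and P2ry2, a receptor for extracellular ATP and UTP, at least 5.61-fold. Mgll, which splits monoacylglycerols including an endocannabinoid, was at least 3.83-fold lower, Mafa, a transcription factor of beta cells, at least 5.08-fold, and Svil, an actin-binding protein, at least 5.42-fold. Ces1a, a carboxylesterase with close relatives, was at least 5.81-fold lower, but its call was lost without KO 5, WT 5, WT 7 or WT 8 (adjusted p up to 0.0736). Tagln, an actin-binding marker of smooth muscle, was measured in every array, at -2.46, -3.13 and -2.76 against -0.20, 0.46, 0.19 and 0.16, a 7.64-fold fall. Hdac11, a histone deacetylase, fell by 3.28, with 1 of 3 knockout arrays above background. Cxcl3, a neutrophil chemokine like Cxcl6, had 0.89, 1.24 and 1.17 against 3.78, 3.79, 4.01 and 3.87, a 6.79-fold fall (SE 0.15 on the log2 scale, limma adjusted p = 0.00035), so these chemokines went in opposite directions. Of the 30 genes with the largest rises and falls, C4a, Ptprz1, Tmem176b, Trim30d and Ces1a were those that lost their call when 1 array was left out. Under normexp background correction, with its offset of 50, the sizes of the 30 were smaller. They ran from 0.55 to 2.65 for the rises and 0.62 to 2.91 for the falls, and 9 genes kept their call. These were Cxcl6, Msmp, Serping1 and C4b among the rises and Hs6st2, Lhfpl2, Prrx2, Tagln and Cxcl3 among the falls.

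**Figure D4:**
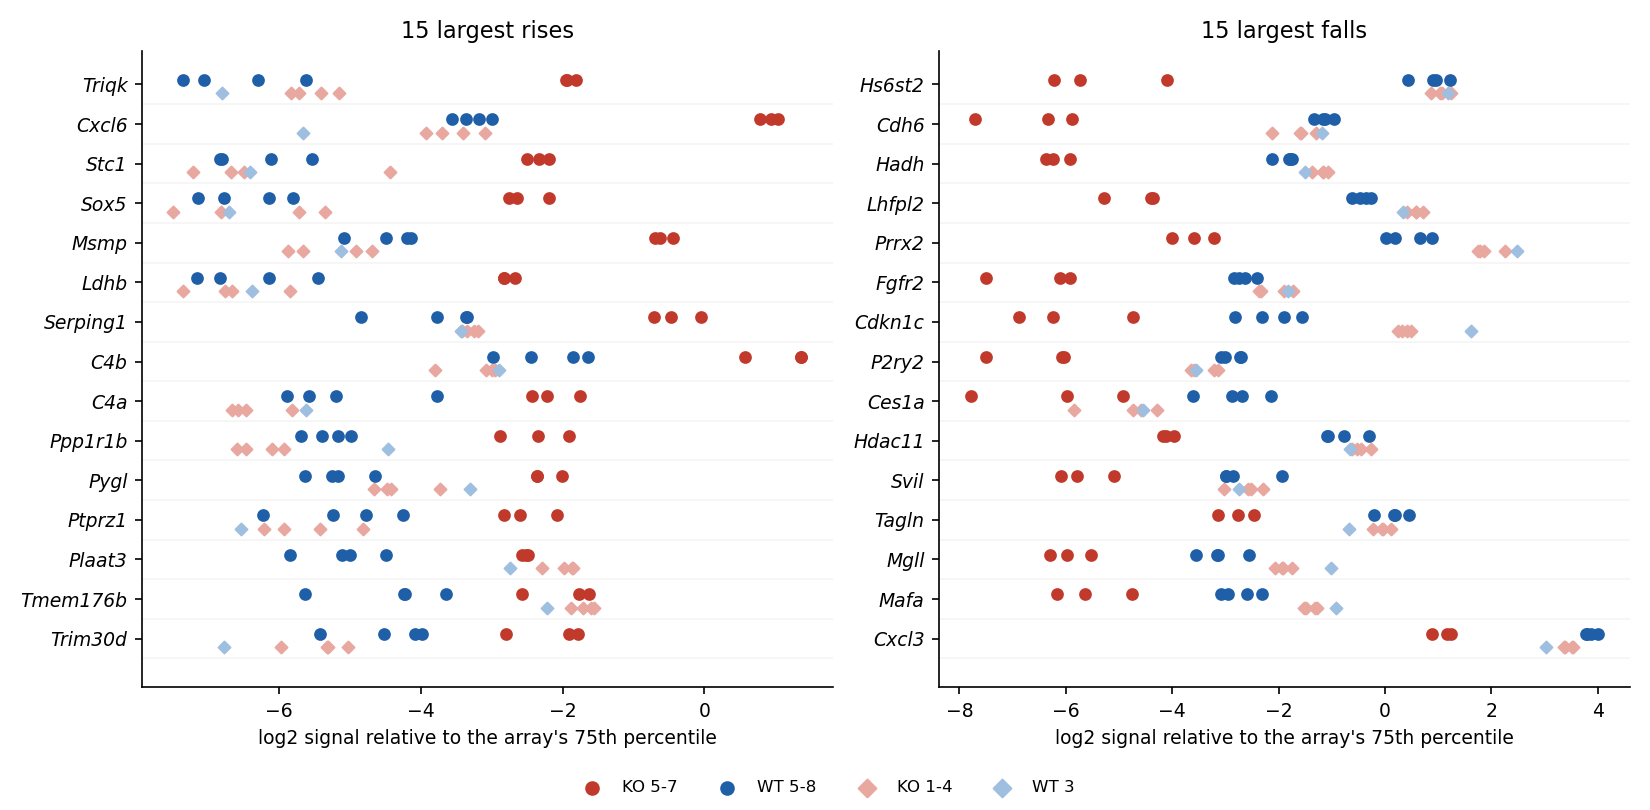
Log2 signal relative to the array's 75th percentile (x axis) of the 15 largest rises and the 15 largest falls (rows), with circles for KO 5-7 and WT 5-8 and diamonds for KO 1-4 and WT 3. The circles of the genotypes are apart in each row, as the choice of genes required. For most falls the diamonds of both genotypes lie nearer to WT 5-8 than to KO 5-7, in several rows outside the range of WT 5-8.

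The arrays numbered 1 to 4 share no array with the comparison, but they were set apart because their measured values differed. The genes were picked for their difference in the numbers 5 to 8, which the interaction below also contains. The counts of nearness and of interaction calls are therefore partly set by these choices and are not independent support. For 14 of the 15 largest falls the mean of KO 1 to KO 4 lay nearer the wild-type mean than the knockout mean of the arrays numbered 5 to 8. Hs6st2 was 0.87 to 1.24 in KO 1 to KO 4 and 1.19 in WT 3, levels close to those of WT 5 to WT 8. Hadh, at -1.37 to -1.08 and -1.51, lay above WT 5 to WT 8. Cdkn1c, at 0.25 to 0.50 and 1.61, lay far above its -2.83 to -1.57 in WT 5 to WT 8. Nearness to the wild-type mean is therefore not the same level. For the largest rises, 13 of 15 had a KO 1 to KO 4 mean nearer to WT 5 to WT 8. Over all calls, 215 of 347 rises and 223 of 336 falls did so, and the share over all features was not computed. The sign of knockout minus wild type was the same in the arrays numbered 1 to 4 for 228 of the 347 rises and 189 of the 336 falls, beside 53.2% of all features.

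A test of the difference itself, the interaction of genotype and number range over all 12 arrays, called 292 features (1.97% of those tested), and 154 of the 683 calls were among them. For the wild type of the lower numbers it rests on WT 3 alone, which is assumed to vary like the others, and slide as a block reduced it to 67 features. The smallest p belonged to Hadh, whose difference was -4.32 in the numbers 5 to 8 and 0.32 in the numbers 1 to 4 (limma interaction adjusted p = 3.1e-05). Cxcl3 was -2.76 and 0.42, and Lhfpl2 -4.25 and 0.24. Igf2r, the receptor that sorts lysosomal enzymes and clears IGF2, had -1.21, -1.04 and -1.24 in the knockout and 0.61, 0.55, 0.66 and 0.5 in the wild type, a fall of 1.74 beside a difference of 0.59 in the numbers 1 to 4 (limma interaction adjusted p = 0.00057). Sostdc1, a secreted inhibitor of BMP and WNT signals, had -1.19, -0.77 and -1.06 in KO 5 to KO 7 and -3.42 to -2.88 in WT 5 to WT 8, a rise of 2.23, beside -3.19 in the numbers 1 to 4. Vdac1 itself fell by 1.12 in the numbers 1 to 4, and its interaction did not pass (-0.68, SE 0.24, limma adjusted p = 0.19).

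Genes of glycolysis, the path from glucose to pyruvate and lactate, included more rises than falls. Of 23 listed, 22 were tested, 7 rose and 1 fell, and 20 had a positive difference, beside 8692 of all 14833 features. The share called higher was 31.8%, beside 2.34% of all features, and the median difference was 0.65, beside 0.08. The lists here and below, and their members, were chosen with earlier results of these data known. A share above that of all features is therefore not a test of the list. Aldoc, an aldolase of brain, had -1.90, -2.29 and -2.37 in the knockout, against -4.22, -4.61, -3.84 and -4.23 in the wild type, where 2 of 4 arrays were above background, a rise of 2.04 (SE 0.21, limma adjusted p = 0.0032). Tpi1, triosephosphate isomerase, had 2.19, 2.16 and 2.39 against 0.92, 0.88, 1.1 and 1.04, a 2.4-fold rise (SE 0.14 on the log2 scale, limma adjusted p = 0.0038). Gapdh had 5.28, 5.55 and 6.31 against 4.56, 4.35, 4.42 and 4.77, a 2.28-fold rise whose call held only without KO 5 among the fits with 1 array left out (adjusted p up to 0.104).

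Hexokinase 2 (Hk2), a form that docks on VDAC1, had 0.54, 0.62 and 0.61 against -0.26, -0.38, -0.38 and -0.13, a rise of 0.88 (SE 0.14, limma adjusted p = 0.016) that was lost without KO 6, KO 7 or WT 5. The glucose transporter Slc2a1 (0.80) and the lactate exporter Slc16a3 (1.06) also rose, and Pfkfb3, which makes the activator of phosphofructokinase, fell by 0.79. These 3 were named after their values were seen, to complete the called members. The median was 0.56 with slide as a block, 0.69 within slide 1 and 0.49 within slide 3. With KO 6, KO 7 or WT 5 left out 3 members rose, with WT 8 left out 4, under normexp background correction 2 and with slide as a block 3. In the arrays numbered 1 to 4 the median was 0.08.

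Other hypoxia-inducible genes were called in both directions. Of 25 tested, 4 rose (16%) and 2 fell (8%), with a median of 0.18, which was 0.44 within slide 1 and 0.35 without KO 5. Bnip3, a receptor for the removal of mitochondria, had 1.58, 1.6 and 1.19 against -0.11, -0.12, 0.31 and -0.27, a rise of 1.5 (SE 0.19, limma adjusted p = 0.0068). Pdk1, the kinase that holds pyruvate dehydrogenase back, rose by 1.15, Bhlhe40 by 1.42 and Ankrd37 by 1.05. Adm, the vasodilator peptide adrenomedullin, had 2.26, 2.52 and 2.15 against 4.05, 4.21, 3.54 and 4.07, a fall of 1.66 (SE 0.20, limma adjusted p = 0.005). Stc2, a secreted glycoprotein, fell by 2.52, with 2 of 3 knockout arrays above background. Adm differed from the arrays numbered 1 to 4, where it was 0.80 higher in the knockout (limma interaction adjusted p = 0.0032). Only 1 of the rises was called without KO 6, KO 7, WT 6 or WT 8 and 2 without KO 5 or WT 5.

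**Figure D5:**
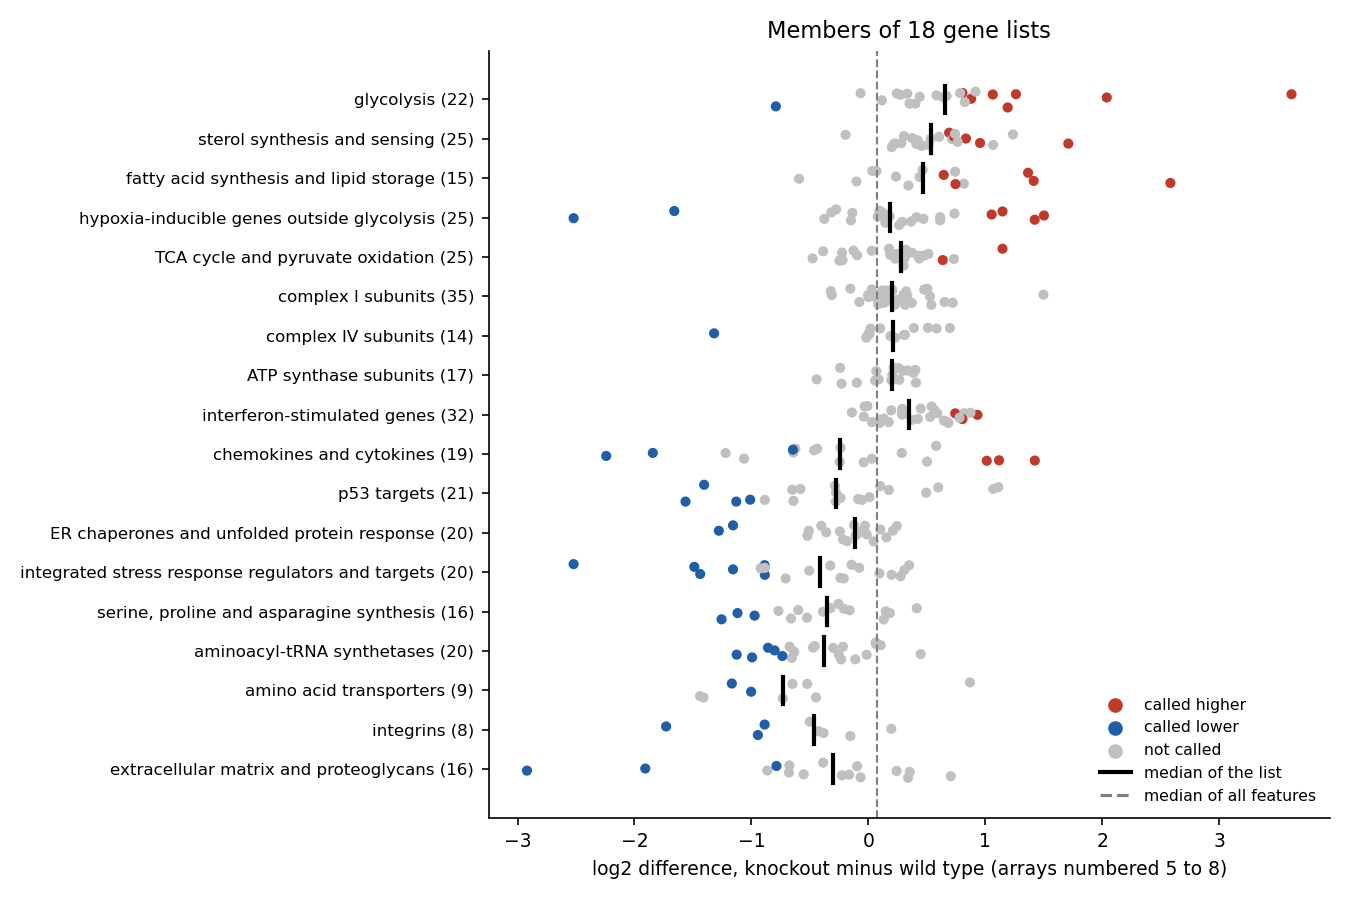
Log2 difference, knockout minus wild type (x axis), of each tested member of 18 gene lists (rows, with the number tested), coloured where called, with the median of each list as a black bar and that of all features as a dashed line. Glycolysis, sterol and lipid genes lie mostly to the right, and stress response, amino acid and tRNA synthetase genes mostly to the left.

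Genes of sterol synthesis and of its sensing, which the SREBP2 factor switches on when membrane cholesterol is low, included rises and no falls. Of 25 tested, 5 rose (20%, beside 2.34% of all features) and 0 fell, with a median of 0.53. A positive difference was found in 24, beside 8692 of all 14833 features. At an unadjusted p under 0.05, 16 were higher, beside 1781 of all features. Insig1, which holds the SREBP complex in the endoplasmic reticulum, had 2.01, 1.71 and 1.55 in the knockout and 0.07, 0.07, -0.05 and 0.10 in the wild type. The groups were far apart, a 3.27-fold rise (SE 0.16 on the log2 scale, limma adjusted p = 0.0017), and a second probe gave 1.45. Acat2, the first enzyme of the path, had 2.32, 2.50 and 2.48 against 1.32, 1.80, 1.35 and 1.44, a rise of 0.96 (SE 0.17, limma adjusted p = 0.022). Tm7sf2, a sterol reductase, rose by 0.83, Hsd17b7 by 0.73 and Fdps, which joins isoprene units, by 0.69.

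In the arrays numbered 1 to 4 the median of the sterol list was 0.02. Insig1 was 1.83 to 2.04 in KO 1 to KO 4 and 1.89 in WT 3, near the level of KO 5 to KO 7 (limma interaction adjusted p = 0.0059). The list's median was 0.52 with slide as a block, 0.58 within slide 1 and 0.47 within slide 3. Insig1 kept its call whichever array was left out, while the other 4 were lost in some of these fits, so the number called fell to 1 without KO 6, KO 7, WT 5 or WT 8 and to 2 without WT 6. With slide as a block it was 1.

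In fatty acid synthesis and lipid storage 5 of 15 tested (33.3%) were called higher and 0 lower, with a median of 0.46. Pparg, the factor that drives fat cell formation, had -2.75, -2.57 and -3.02 against -4.11, -4.19, -4.91 and -3.56, a rise of 1.41 (SE 0.30, limma adjusted p = 0.04), with 2 of 4 wild-type arrays above background. Scd2, a desaturase that makes monounsaturated fatty acids, had 4.38, 3.79 and 3.87 against 2.38, 2.44, 3.43 and 2.33, with WT 7 well above the other wild-type arrays, a rise of 1.37 (SE 0.30, limma adjusted p = 0.044). Acsl3 (0.74) and Fads1 (0.64) also rose, beside Plaat3. The number called was 1 without KO 5, KO 6, KO 7, WT 5 or WT 6 and 2 without WT 8, with Plaat3 called in each.

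Genes of the integrated stress response, which ATF4 turns on when amino acids run short or mitochondria are disturbed, included falls and no rises. Of 20 tested, 0 rose and 6 fell (30%, beside 2.27% of all features), with a median of -0.42. A negative difference was found in 15, beside 6141 of all 14833 features. Nupr1, a stress-induced chromatin protein, had 1.63, 1.55 and 1.43 in the knockout, against 3.05, 2.75, 3.28 and 2.83 in the wild type, a 2.71-fold fall (SE 0.17 on the log2 scale, limma adjusted p = 0.0049) with 1.42 lower on a second probe too. Trib3, a pseudokinase that damps the response, had -1.17, -0.58 and -0.64 against 0.81, 0.91, -0.04 and 1.08, a fall of 1.49 (SE 0.29, limma adjusted p = 0.031). WT 7 was the lowest wild-type array for it. Herpud1, of endoplasmic reticulum protein disposal, fell by 1.16, Stc2 by 2.52, and Atf3 and Chac1 each by 0.89. Without KO 6, KO 7, WT 5 or WT 8 only Nupr1 was called, 2 members without WT 6 and 3 without KO 5. The median was -0.41 with slide as a block, -0.49 within slide 1 and -0.42 within slide 3, and -0.05 in the arrays numbered 1 to 4.

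Many enzymes that build or load amino acids are targets of the same response. In serine, proline and asparagine synthesis 3 of 16 tested (18.8%) fell and 0 rose, with a median of -0.36. Psph, the last enzyme of serine synthesis, had -0.77, -0.72 and -1.03 against 0.40, 0.55, 0.34 and 0.37, a 2.39-fold fall (SE 0.15 on the log2 scale, limma adjusted p = 0.0045). Phgdh, the first enzyme, had 3.56, 3.81 and 3.55 against 4.73, 4.49, 4.58 and 4.64, a fall of 0.97 (SE 0.14, limma adjusted p = 0.013). Pycr1, of proline synthesis, fell by 1.12. Phgdh and Pycr1 were lost without KO 7 or WT 8.

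Among the aminoacyl-tRNA synthetases, which load tRNAs for translation, 5 of 20 tested (25%) fell and 0 rose, with a median of -0.38. Sars1, for serine, had -0.36, -0.09 and 0.12 against 1.06, 0.96, 0.85 and 1.19, a 2.18-fold fall (SE 0.17 on the log2 scale, limma adjusted p = 0.013). Tars1 fell by 0.99, Eprs1 by 0.86, Aars1 by 0.80 and Yars1 by 0.74. The number called was 0 without KO 6 or WT 8, 1 without KO 7 or WT 5 and 2 without WT 6. Of 9 amino acid transporters tested, Slc7a5 (fall of 1.17), which imports large neutral amino acids, and Slc6a9 (fall of 1.0), which imports glycine, were called (22.2%), and the median was -0.73, or -0.43 under normexp background correction. The signal of Slc7a5 was well above background on 2 of 3 knockout arrays. Slc7a5 was lost without KO 6, KO 7, WT 5 or WT 8, and Slc6a9 without KO 6.

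ATF4 and its partners bind the C/EBP-ATF response element, here searched as TGATGNAA on both strands in the 250 bases before the annotated start of each gene (RefSeq, build GRCr8). Of 27457 genes with such a window, 3.58% held it, and of the features tested 2.08% of 8650. It stood in 6.33% of 221 called falls, 2.27% of 176 called rises and 0 of 21 glycolysis genes. It stood in 5 of 19 stress response genes, 5 of 17 tRNA synthetases, 2 of 13 amino acid synthesis genes and 2 of 8 transporters. The windows of 4 of the called genes are printed because they hold the match, each 5′ to 3′ along the gene with the match in capitals.
Nupr1, chr1:190645933-190645972: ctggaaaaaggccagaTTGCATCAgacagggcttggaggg
Trib3, chr3:161275534-161275573: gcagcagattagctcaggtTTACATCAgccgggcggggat
Pycr1, chr10:106420920-106420959: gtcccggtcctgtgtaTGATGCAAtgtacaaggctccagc
Tars1, chr2:62114806-62114845: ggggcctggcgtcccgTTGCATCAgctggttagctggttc
All 4 genes lie on the minus strand of GRCr8. The match starts 55 bases before the start of Nupr1, 21 before Trib3, 131 before Pycr1 and 27 before Tars1, and Chac1, Herpud1 and Aars1 held it too. The windows of Stc2, Phgdh, Psph, Sars1, Eprs1, Yars1, Slc7a5 and Slc6a9, which also fell, did not. A match is a description of the letters, not a measured binding site.

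The core of the hypoxia response element, searched as ACGTG on both strands of the same windows, stood in 52.4% of 21 glycolysis genes and 40.9% of 22 other hypoxia-inducible genes, beside 18.1% of all windows, 23.6% of the tested features, 18.2% of called rises and 19.0% of called falls. Bnip3 and Aldoc are printed as called rises that hold it.
Bnip3, chr1:203155039-203155078: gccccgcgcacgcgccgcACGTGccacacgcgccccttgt
Aldoc, chr10:63715495-63715534: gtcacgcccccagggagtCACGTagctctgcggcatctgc
Bnip3 lies on the minus strand and Aldoc on the plus strand, and the capitals mark the match, which in Aldoc is on the other strand. Slc2a1, Gapdh, Ankrd37 and Bhlhe40 also held it, as did Pfkfb3, which fell. Of the other called members, Tpi1, Hk2, Ldhb, Slc16a3, Pdk1, Adm and Stc2 did not hold these letters in this window. The sterol regulatory element, searched as TCACNCCAC, was in 0 of 19 sterol list windows and 1.09% of all, which says only that these letters were not in these windows.

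Genes of the respiratory chain moved little. Of 35 complex I subunits tested, limma called 0, and 5 had an unadjusted p under 0.05, all higher. Over all 14833 features 1781 were higher and 1294 lower at that threshold. The smallest p in complex I was that of Ndufb2 (0.50, SE 0.15, limma adjusted p = 0.11). Of 14 genes of complexes II and III and cytochrome c, Uqcrh, a hinge subunit of complex III, rose by 0.58 (limma adjusted p = 0.049), and it was not called in any fit with 1 array left out. Of 14 complex IV subunits, Cox6a2, the muscle form of an accessory subunit, had -1.83, -1.17 and -1.1 against 0.25, -0.59, 0.20 and -0.06, a fall of 1.32 whose call held only without WT 6 among the fits with 1 array left out. Of 17 ATP synthase subunits limma called 0 (2 at an unadjusted p under 0.05), and Atp5me was at -0.44 (limma adjusted p = 0.13). Uqcrh and Cox6a2 were each 7.14% of their list, beside 2.34% of all features called higher and 2.27% lower. The medians of the 4 lists were 0.20, 0.27, 0.21 and 0.21, and under quantile normalization 0.07, 0.19, 0.10 and 0.02.

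In the TCA cycle and pyruvate oxidation 2 of 25 tested rose (8%, beside 2.34% of all features). These were Pdk1 and Dlst (0.64), a subunit of oxoglutarate dehydrogenase, and both kept their call only without WT 7 when 1 array was left out. Of 23 genes of fatty acid oxidation only Hadh was called (4.35% lower, beside 2.27% of all features), and the median of the list was -0.03. Limma called 0 of 9 pentose phosphate genes, 0 of 21 for mitochondrial fusion, fission and mitophagy, 0 of 25 for import, chaperones and proteases, 0 of 14 for mitochondrial DNA maintenance, 0 of 23 antioxidant genes, 0 of 21 iron and heme genes and 0 of 75 cytosolic ribosomal proteins. At an unadjusted p under 0.05 these lists held 2, 4, 4, 1, 7, 3 and 10 members, beside 3075 of all 14833 features. The smallest p in them belonged to Rpe (0.47), Optn (0.90), Timm8a1 (-0.59), Ssbp1 (0.40), Slc7a11 (-1.41), Fech (0.92) and Rpl32 (0.74). Of 65 mitochondrial ribosomal proteins Mrpl14 rose by 0.72, a share of calls (1.54%) below that of all features, and was lost without KO 6, KO 7, WT 5, WT 6 or WT 8.

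Among 18 genes of the VDAC family and its partners 2 rose (11.1%) and 1 fell (5.56%), beside 2.34% and 2.27% of all features. Besides Vdac1 and Hk2 the call was on Ppif, cyclophilin D of the permeability transition pore, with 0.88, 1.27 and 1.02 in the knockout and 0.44, 0.23, 0.11 and 0.41 in the wild type, a rise of 0.76 (SE 0.16, limma adjusted p = 0.042) that was lost whichever array was left out. Of 13 genes of the mitochondrial calcium uniporter and of calcium release, Mcub, the subunit that weakens the uniporter, was called (7.69%). It had -0.69, -0.57 and -0.54 against 0.63, 0.47, 0.54 and 0.62, a 2.25-fold fall (SE 0.13 on the log2 scale, limma adjusted p = 0.0041) that held in each fit with 1 array left out and differed from the 0.21 of the arrays numbered 1 to 4 (limma interaction adjusted p = 0.0074).

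Targets of p53, which halts the cell cycle or starts cell death after damage, included 4 falls and 0 rises among 21 tested (19.0%, beside 2.27% of all features). The median was -0.28, but -0.07 within slide 1. Plk2, a stress-responsive kinase, had -0.69, -1.07 and -1.01 against 0.53, 0.69, 0.49 and 0.84, a 2.96-fold fall (SE 0.17 on the log2 scale, limma adjusted p = 0.0033). Cdkn1a, the cell cycle inhibitor p21, had 0.62, 1.08 and 1.37 against 2.82, 1.94, 2.72 and 2.21, a fall of 1.40 called only without WT 6 when 1 array was left out (adjusted p up to 0.0967). Tp53i11 fell by 1.13, with 2 of 3 knockout arrays above background, and Gadd45a by 1.01. The number called was 1 without KO 6 or WT 5 and 2 without KO 7 or WT 8, and Plk2 was called in each. In the BCL2 family and caspases 1 of 28 rose and 1 fell, 3.57% in each direction, which is near the background. Birc5, survivin, which also serves mitosis, had 0.90, 0.45 and 0.99 against -0.52, -0.15, -0.82 and -0.62, a rise of 1.31 (SE 0.21, limma adjusted p = 0.018) lost without KO 7, WT 5 or WT 8. Bcl2l11, the death activator BIM, fell by 0.84 and was lost whichever array was left out. Of 28 genes of mitosis and DNA replication 1 rose and 1 fell, again 3.57% in each direction. Besides Birc5 the call was Cenpf, which fell by 1.14, with 2 of 3 knockout arrays above background. It was likewise lost whichever array was left out.

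Chemokine and cytokine genes were called in both directions, 3 of 19 higher and 3 lower (15.8% each). The list does not hold Cxcl6 and Cxcl3. Cxcl11, a chemokine that interferon induces, had -2.02, -2.10 and -2.19 against 0.31, -0.21, 0.34 and 0.11, a 4.73-fold fall (SE 0.18 on the log2 scale, limma adjusted p = 0.0012). Ccl7, which draws monocytes, had 0.76, 0.33 and 0.26 against 2.11, 2.29, 2.78 and 2.0, a 3.59-fold fall (SE 0.23 on the log2 scale, limma adjusted p = 0.0059), and Cx3cl1 fell by 0.65. Ltb, a membrane-anchored lymphotoxin, rose by 1.42, Il33, a nuclear alarm cytokine, by 1.12 and Csf3, the granulocyte growth factor, by 1.01. Cxcl11 and Ccl7 kept their calls whichever array was left out, but none of the 3 rises did so without KO 6, KO 7, WT 5 or WT 8, and 1 was called without KO 5 or WT 6. Of 32 interferon-stimulated genes 28 had a positive difference, beside 8692 of all 14833 features. The median was 0.35, or 0.53 within slide 3. Limma called 0 lower and 3 higher (9.38%, beside 2.34% of all features). These were Ifi44 (0.93), Irf7 (0.80), a master factor of the type I response, and Ifit3 (0.74), and each was lost whichever array was left out. The median in the arrays numbered 1 to 4 was 0.56.

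In the endoplasmic reticulum list 2 of 20 fell (10%, beside 2.27% of all features), Herpud1 and Xbp1. Xbp1, a factor of the unfolded protein response, had -0.09, -0.31 and -0.58 against 0.64, 1.06, 1.59 and 0.53 (fall of 1.28, limma adjusted p = 0.04, called only without WT 7 when 1 array was left out). The median of this list was -0.12, but -0.01 within slide 1 and -0.32 within slide 3.

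Integrins, which anchor cells to the matrix, included 3 falls (37.5%) and 0 rises among 8 tested, with a median of -0.46. Itgb5 had -3.27, -3.82 and -3.29 against -1.66, -1.84, -1.22 and -2.21, a 3.32-fold fall (SE 0.26 on the log2 scale, limma adjusted p = 0.013) lost without KO 6 or KO 7. Itga6 fell by 0.94 and was lost whichever array was left out, and Itgav fell by 0.89 and was lost without KO 6, KO 7, WT 5 or WT 8. Of 16 matrix and proteoglycan genes 3 fell (18.8%) and 0 rose, with a median of -0.31 that was -0.19 within slide 1. Hapln1, which links hyaluronan to proteoglycans, fell by 2.92 with 1 of 3 knockout arrays above background, and its call was lost without KO 7 (limma adjusted p = 0.0508). Col3a1, a fibrillar collagen, was not well above background in any knockout array and was at least 3.63-fold lower. Col5a1 fell by 0.79, and its call held only without WT 7 when 1 array was left out.

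Of 14 neuronal cytoskeleton and axon genes 3 fell (21.4%) and 1 rose (7.14%), with a median of -0.16, or -0.03 with the mean of a gene's passing probes. Map1b, which stabilises growing axons, had -0.85, -1.06 and -1.27 against 0.57, 0.39, -0.24 and 0.32, a fall of 1.32 (SE 0.22, limma adjusted p = 0.019) called only without KO 5 or WT 7. The adhesion molecule Ncam1 fell by 1.08 and was called only without WT 5 or WT 7. Tuba1a fell by 0.73 and Map1a rose by 1.12, both lost whichever array was left out. The signal of Map1a was well above background on 2 of 3 knockout and 1 of 4 wild-type arrays, so its difference is not a size. Npy, neuropeptide Y, was the call among 9 tested genes of secretory granules (11.1%, beside 2.27% of all features). It had -4.27, -3.77 and -3.76 against -1.82, -2.11, -1.86 and -2.26, a 3.78-fold fall (SE 0.19 on the log2 scale, limma adjusted p = 0.0027) that held in each fit with 1 array left out, with 2 of 3 knockout arrays above background.

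The labelled cell type was checked with marker lists. Of 25 genes of dopaminergic identity 6 were well above background on all 7 arrays and 13 on none. Th, which makes the precursor of dopamine, was well above background in all 7 and not called (0.07, limma adjusted p = 0.91), while the dopamine transporter Slc6a3, Ddc and the midbrain factors Pitx3, En1, Lmx1a and Foxa2 were not well above background on any array. Of 10 tested, 1 rose and 1 fell (10% each, beside 2.34% and 2.27% of all features). Spr, of the cofactor path for dopamine synthesis, rose by 0.95 and was lost whichever array was left out. Nr4a2, which maintains dopamine neurons, fell by 0.97, with 1 of 3 knockout arrays above background, and was lost without KO 6, KO 7, WT 5, WT 6 or WT 8. Of 14 glial markers 2 were tested and 7 were above background on no array, and Pdgfra had the smallest p (0.94, limma adjusted p = 0.075). Of 16 microglia and blood markers 4 were tested and 0 called, with Hba-a1 at 0.67.

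Of 16 fibroblast and endothelial markers 8 were tested and 2 fell (25%, beside 2.27% of all features), S100a4 (fall of 1.0, lost without KO 7) and Col3a1. Acta2 was at -1.72 and Vim at -0.97, both not called (limma adjusted p = 0.056 and 0.07). Of the other tested markers Pdgfrb was at -0.65, Col1a1 at 0.35, Thy1 at 0.31 and Vwf at 0.24, none called, so 5 differences were negative and 3 positive. The summed linear level of the 16 markers was 23.1 to 26.3 times the array's 75th percentile in the knockout and 41.2 to 46.6 in the wild type, while Fap, Dcn, Lum, Pecam1, Kdr, Tek and Cldn5 were not well above background on any array. S100a4 and Vim made up 75.4% to 83.6% of this sum in the knockout and 86.8% to 90.8% in the wild type, and without them it was 4.14 to 5.75 and 4.29 to 5.72, with overlapping groups. The whole sum was lower in the knockout, as were the called integrins, matrix genes and Tagln, and its part in those falls was not tested. The summed level of the 14 glial markers was 0.436 to 0.455 in the knockout and 0.309 to 0.387 in the wild type, in the same unit. Of these markers 0 were well above background on all 7 arrays and 7 on none. This glial sum therefore includes background signal, and its order between the genotypes is not a result. In bulk RNA fewer cells of a type and less RNA per cell cannot be told apart.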

How the data were processed

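Total RNA of 12 samples was hybridised to 1-colour Agilent rat arrays, and the 7 arrays numbered 5 to 8 were analysed, with the other 5 used in the interaction. Per the file headers, the deposited intensity values are Feature Extraction 10.1.1.1 signals, background-subtracted by that program, with grid coordinates on rn4 (the submitters' processing notes name version 10.7). The authors' value table holds log2 values whose titles read "Q. Norm.", taken here as quantile normalization, with the same median of 3.06 in all 12 arrays. It served as an alternative.

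Control spots were left out, and processed signals were put on the log2 scale minus each array's 75th percentile. Of 45598 probes, the brightest per gene name was kept (36174), if well above background on at least 3 arrays (14833 tested). Outlier-flagged spots were dropped, which left 9 missing values, none imputed. Groups were compared with limma 3.58.1 (R 4.3.3; lmFit and eBayes on the 7 arrays, Benjamini-Hochberg adjusted p under 0.05). Tested on simulated data of this comparison (14833 features, 200 changed per size), the fit recovered 0% of log2 changes of 0.5, 43% of 1 and 85% of 2.

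Named genes were Vdac1 to Vdac3, the 15 largest rises and falls with a symbol, without overlap and with the brighter group above background, up to 4 called members of each list (or the smallest p), and up to 5 genes by interaction p. Ankrd37, Fdps, Fads1, Atf3, Chac1, Yars1, Cx3cl1 and Csf3 were named after their values were seen. Some genes are not reported here and were left out of the lists and named genes, but not of the fits and counts over all features. Members and lists were chosen with earlier results of these data known. No pairing was used. Same-numbered arrays did not deviate together, but each such pair was split between the scan days, so this cannot show whether they were paired. The number of arrays limits the precision. Alternatives changed the background correction, normalization, filter, probe rule, variance model, slide, scan day, replicate, RNA quality and arrays used.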

Additional observations from a re-analysis of the deposited data

Results flagged for a closer look

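Among 109 named genes examined in the 4 wild-type arrays, 5 had an array far from the other 3 relative to the range, and chance alone gives such an array in about 1 in 20 groups. Scd2 was 3.43 in WT 7 and 2.33 to 2.44 in the others, Svil -1.93 against -2.99 to -2.86, and Herpud1 1.26 against 1.51 to 1.56, all in WT 7. Hadh was -2.12 in WT 8 against -1.81 to -1.76, and Ifit3 was -0.65 in WT 5 against -1.03 to -1.01. WT 7 also had the largest difference between repeated spots, 0.233 on the log2 scale, and its part in these values was not tested.

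For 37 named genes the genotype difference was not the same in the 2 number ranges by the limma interaction (difference in the numbers 5 to 8 minus that in the numbers 1 to 4, adjusted p under 0.05), which has WT 3 as the only wild-type array of the lower numbers. The interaction was positive for Sostdc1 (5.41), Ppp1r1b (4.75), Msmp (4.05), Pygl (3.94), Ldhb (3.90), C4a (3.73), C4b (3.64), Triqk (3.41), Serping1 (3.28), Aldoc (2.54), Cxcl6 (2.07), Bhlhe40 (2.03), Insig1 (1.71) and Hk2 (1.07). It was negative for Hs6st2 (-6.11), Cdh6 (-5.03), Hadh (-4.64), Lhfpl2 (-4.49), P2ry2 (-3.81), Fgfr2 (-3.59), Tagln (-3.55), Hdac11 (-3.48), Prrx2 (-3.48), Cxcl11 (-3.20), Cxcl3 (-3.18), Svil (-3.11) and Col3a1 (-2.77). Smaller negative values were those of Adm (-2.46), Ccl7 (-2.41), Igf2r (-2.34), Mafa (-2.31), Mgll (-1.93), S100a4 (-1.47), Slc6a9 (-1.40), Herpud1 (-1.38), Mcub (-1.38) and Sars1 (-1.15). Where a gene was not well above background in a group, its value is not a size. Many of the 109 named genes were chosen for their difference in the numbers 5 to 8, and some for their interaction p. The count of 37 is therefore partly set by that choice.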

How the results depend on the processing

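Calls depended on the number of arrays and on the handling of dim probes, while Vdac1 stayed lower in each setting. The normexp setting also added an offset of 50, whose part was not separated from that of the correction. Against 347 features higher and 336 lower, normexp background correction gave 56 and 38, no filter on dim probes 19 and 25, slide as a block 79 and 99, either slide alone 0 and 0, scan day as a block 700 and 630, the 3′ index as a covariate 150 and 173, and genotype alone over all 12 arrays 91 and 58. Quantile normalization gave 226 higher, and median centring changed the share of rises from 50.8% to 41.8%. Leaving out 1 array gave 60 to 322 higher and 88 to 307 lower. Chosen after seeing the data, scan day 1 alone gave 193 and 211, and WT 5 and WT 8 averaged as 1 array gave 112 and 116. The deviations of same-numbered arrays from the means of their genotypes correlated at -0.382, -0.137 and -0.240. Each such pair was split between the scan days, so these values cannot show whether they are pairs. With number as a replicate block 7 features were higher and 9 lower, and Vdac1 was -1.81 (limma adjusted p = 0.0881). Vdac1 was also not called within slide 1 (-1.71), within slide 3 (-1.91) or with genotype alone over 12 arrays (-1.23). The interaction called 67 features with slide as a block, against 292.

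Vdac2 turned positive within slide 1 (0.13), over 12 arrays with number range as a block (0.085), and in scan day 1 (0.095), and lay between -0.307 without KO 5 and 0.018 without WT 7 when 1 array was left out. Vdac3 turned negative under normexp (-0.0065), quantile normalization (-0.036), the authors' table (-0.025), the replicate block (-0.054), and with WT 5 and WT 8 averaged (-0.043), and lay between -0.235 without KO 5 and 0.245 without KO 7; it was also negative without WT 5 (-0.031) or WT 8 (-0.054). With genotype alone over 12 arrays Il33 (-1.47), Pdgfra (-0.71) and Sostdc1 (-0.097) changed sign. Of 2769 values of named genes under alternatives 1741 kept direction and side of the threshold, 992 lost the call, 21 gained it and 15 changed sign. Of 96 called named genes 41 kept the call whichever array was left out. The glial list had no member above background on all 7 arrays, so it has no value under that filter. Dim signals limit the sizes of probes near background.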
